A study of Mus musculus with 6 samples.

Results

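Collagen transcripts were measured in subcutaneous tumours of A375 cells, an established cell line from a human melanoma. The genes described were chosen by name and not by a rule on measured values, though earlier results of these data were known. The chains are COL1A1, COL1A2, COL3A1, COL4A1, COL4A2, COL5A1, COL5A2, COL6A1, COL6A2 and COL6A3, each matched by its human Ensembl identifier. They are 10 of the 14202 Ensembl identifiers listed in the data. All 10 were found, at 11 loci with 89 transcript events, out of 15234 loci and 175743 events in all.

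The tumours came from BALB/c nude mice, which lack mature T cells. Those in the ZLD1039 group (3 tumours) came from mice given ZLD1039, an inhibitor of the histone methyltransferase EZH2, by daily oral gavage at 100 mg/kg, and those in the vehicle group (3 tumours) from mice given vehicle by the same route. Both groups carried the same injected cells on the right flank, with the genotype labelled WT, and both were labelled day 27. The label names 1 cell line, so every tumour descends from the same parent line, and the tissue also holds mouse blood vessels, fibroblasts and other host cells. The comparison asks how the RNA of tumours under the EZH2 inhibitor differs from that of tumours under vehicle.

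Collagens are secreted as trimers of chains wound into a triple helix. Types I, III and V make up the striped fibrils of connective tissue and are made mainly by fibroblasts. Type IV forms the sheet of basement membranes under epithelium and around vessels, and type VI forms beaded filaments that lie between basement membranes and fibrils. Tumour cells can make some of these chains themselves, and EZH2 is known for placing the histone H3 mark that keeps genes off.

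Abundance was deposited as FPKM, a fragment count scaled by transcript length and library size, for each listed event of a locus: a start site, an end site, a skipped or included exon, a kept or spliced intron, or an alternative exon end. The value of a locus is the largest of its summed starts, its summed ends and its largest event. FPKM is scaled by length, so levels can be set side by side between genes. The depth of the libraries is unknown, and no counting error can be given. A locus with no listed event has the value 0 here, which need not mean that it was off. Positions given for a locus run from its first to its last listed event, which need not span the whole gene. Of the tumours, ZLD1039 2 stood apart from the rest: it scored 51.9 on the first principal component of all loci, against -13.3 to -4.02 for the others. It also had the lowest mean correlation with the other tumours, 0.919, against 0.934 to 0.943. In bulk tumours, fewer cells that make a chain and less of its RNA per cell cannot be told apart.

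Mouse reads can be placed on human genes where the sequences are alike, and collagen coding sequences are well conserved. The positions in the files lie on human chromosomes, and the files hold no separate value for mouse transcripts. No marker of host or melanoma cells was checked, because no table used here pairs the human identifiers with names. The part of host reads in the values below was not tested, and the label of melanoma was not checked against markers.

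The chains fell into 3 tiers of abundance. By locus value, COL6A1 and COL6A2 had the highest FPKM of the 9 chains with a locus on their own strand, followed by COL4A2, COL4A1 and COL5A2. That order mixes kinds of event, since COL6A1 takes its value from its end and COL4A2 from its starts. By summed starts, COL6A1 was below COL4A2 in ZLD1039 tumour 3 (45.5 against 72.0 FPKM) and in vehicle tumours 2 and 3 (74.8 against 82.1 FPKM and 66.9 against 88.5 FPKM). COL1A1, COL3A1, COL1A2 and COL5A1 stayed below 5 FPKM in every tumour. By locus value COL6A1 was above COL6A2 without overlap in vehicle tumours, and in ZLD1039 tumours the pair overlapped. By summed starts the order in vehicle tumours turned round, with COL6A1 at 66.9 to 76.0 FPKM and COL6A2 at 217 to 239 FPKM. The ranges of the 4 lowest chains overlapped, except that COL1A2 lay wholly below COL3A1 in ZLD1039 tumours and COL5A1 wholly below COL3A1 in vehicle tumours. The type VI chains made up 78.3%, 84.0% and 70.5% of the summed collagen FPKM in ZLD1039 tumours 1, 2 and 3, and 81.2%, 80.2% and 79.4% in vehicle tumours 1, 2 and 3. The type IV chains made up 19.4%, 13.8% and 26.7% in the ZLD1039 tumours, and 15.6%, 17.3% and 17.5% in the vehicle tumours. Chains of types I, III and V together made up 2.27%, 2.19% and 2.79% in the ZLD1039 tumours, and 3.23%, 2.42% and 3.13% in the vehicle tumours. The shares of each class overlapped between the groups. They take COL6A1 at its end and were not computed from its summed starts. The summed collagen FPKM was 561, 422 and 396 in ZLD1039 tumours, against 638, 638 and 675 in vehicle tumours, and did not overlap. That separation depends on the end of COL6A1: with its summed starts in place, an alternative chosen after seeing the data, the sums were 560, 420 and 259 FPKM in ZLD1039 tumours, against 413, 439 and 444 FPKM in vehicle tumours, and overlapped. The sums carry no test of their own.

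**Figure D1:**
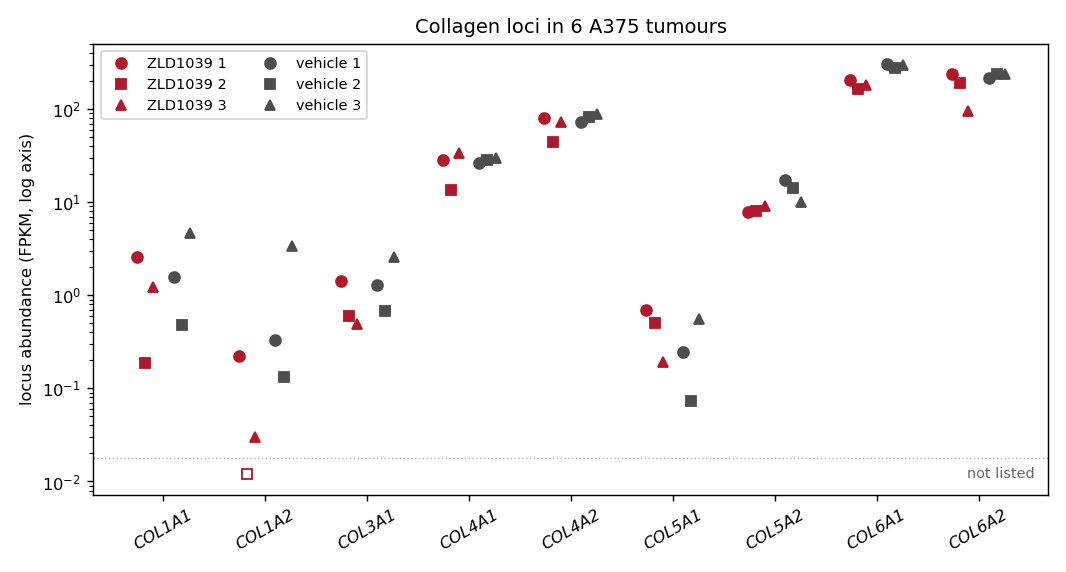
Locus abundance in FPKM (log axis) of the 9 collagen chains with a locus on their own strand, 1 point per tumour, with ZLD1039 tumours in red left of vehicle tumours in grey; the open square below the dotted line is a locus not listed. COL6A1 and COL6A2 lie near or above 100 FPKM in all 6 tumours, and the groups of COL6A1 and COL5A2 do not overlap, as at 5.2% of all loci tested with ZLD1039 lower.

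COL6A1 (ENSG00000142156), the first chain of the type VI trimer, lies on chromosome 21 from 47401624 to 47424964 on the plus strand. Its locus FPKM was 203, 164 and 183 in ZLD1039 tumours 1, 2 and 3, against 302, 273 and 298 in vehicle tumours 1, 2 and 3. Every ZLD1039 tumour was below every vehicle tumour. The means were 184 ± 19.6 FPKM under ZLD1039 and 291 ± 15.5 FPKM under vehicle (SD, n = 3 each). In the limma fit over all loci the difference was -0.67 on the log2(FPKM + 1) scale, with a standard error (SE) of 0.16 and a 95% interval of -1.04 to -0.29. Its unadjusted p was 0.00347 and its Benjamini-Hochberg adjusted p 0.881 by limma, so the locus did not pass the threshold of 0.05. Of all loci tested, 4.10% had a lower log2 difference.

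That value rests on the end of the gene. The end event at 47423305 to 47424964 gave exactly the locus value in all 6 tumours. The starts gave another picture. Summed start events were 202, 161 and 45.5 FPKM in ZLD1039 tumours, against 76.0, 74.8 and 66.9 FPKM in vehicle tumours. ZLD1039 tumours 1 and 2 were above all vehicle tumours in summed starts, and ZLD1039 tumour 3 was below them. From the starts alone the log2 difference was 0.65 (SE 0.51) with an adjusted p of 0.900 by limma, which turns the direction round. The ratio of summed ends to summed starts was 1.01, 1.02 and 4.02 in ZLD1039 tumours, and 3.97, 3.65 and 4.45 in vehicle tumours. ZLD1039 tumour 3 thus had a ratio like those of the vehicle tumours, and ZLD1039 tumours 1 and 2 had nearly equal starts and ends. The leading start, at 47401624 to 47401861, held 99.9%, 99.8% and 99.6% of the summed starts in ZLD1039 tumours, and 96.0%, 98.8% and 99.6% in vehicle tumours. Its share did not pass the test (adjusted p 0.799 by limma).

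An intron near the end of COL6A1, at 47420681 to 47421167, was listed as kept in all ZLD1039 tumours and in no vehicle tumour. The kept form had 201, 34.1 and 45.3 FPKM in ZLD1039 tumours 1, 2 and 3. It was unlisted in vehicle tumours 1, 2 and 3, so no fold change is given. The kept form equalled 100.0%, 21.2% and 100.0% of the leading start's FPKM in ZLD1039 tumours 1, 2 and 3. ZLD1039 tumours 1 and 3 thus listed the kept intron at the level of the start, and ZLD1039 tumour 2 at a smaller part of it. In ZLD1039 tumour 3 the end stood at 183 FPKM, so 100.0% of the start was a smaller part of the locus value. In ZLD1039 tumours 1 and 3, 10 of the 13 listed events, the start included, had the same value. The kept form was among them, so its level is not a measure apart from theirs. ZLD1039 tumour 2 also listed an event of the exon-skipping kind at 47420673 to 47420681, at 127 FPKM, which no other tumour listed. By limma over all events the kept intron had an unadjusted p of 4.03e-05 and an adjusted p of 0.0655, so it was not called. The kept intron reached the minimum mean of 1 FPKM through the ZLD1039 group alone, and its unlisted vehicle values entered the fit as 0. Its p-values lean on those zeros and are no separate support for a difference. Its call depends on the pseudocount: with 0.1 FPKM added in place of 1 the adjusted p was 0.0466, and without any 1 tumour it ran between 0.0693 and 0.268. An event at 47421065 to 47421167 and an alternative exon end at 47420673 to 47421300 had the same values in every tumour, and they add no separate evidence. No spliced form was listed at the coordinates of the whole intron, so its share in percent could not be tested. A spliced event inside it, at 47421065 to 47421167, was listed at 2.84 and 0.334 FPKM in vehicle tumours 1 and 2 and in no ZLD1039 tumour. These levels were far below the leading start's 73.0 and 73.9 FPKM in the same vehicle tumours. An exon end at 47421167 to 47421300 had the same values in vehicle tumours 1 and 2, and 127 FPKM in ZLD1039 tumour 2. Vehicle tumour 3 listed neither a kept nor a spliced form of this intron, so its state there is unknown.

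Vehicle tumour 1 listed 4 further COL6A1 introns as kept, which no other tumour listed. The intron at 47417676 to 47418035 was kept in 24.9% of its FPKM there, and the introns at 47418085, 47409692 and 47419132 in 18.2%, 13.8% and 10.2%. None of the 4 shares passed the test (adjusted p 0.719 for each by limma). With 25 distinct events, COL6A1 had the most of any collagen locus, and 10 of the 25 were listed in all 6 tumours.

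**Figure D2:**
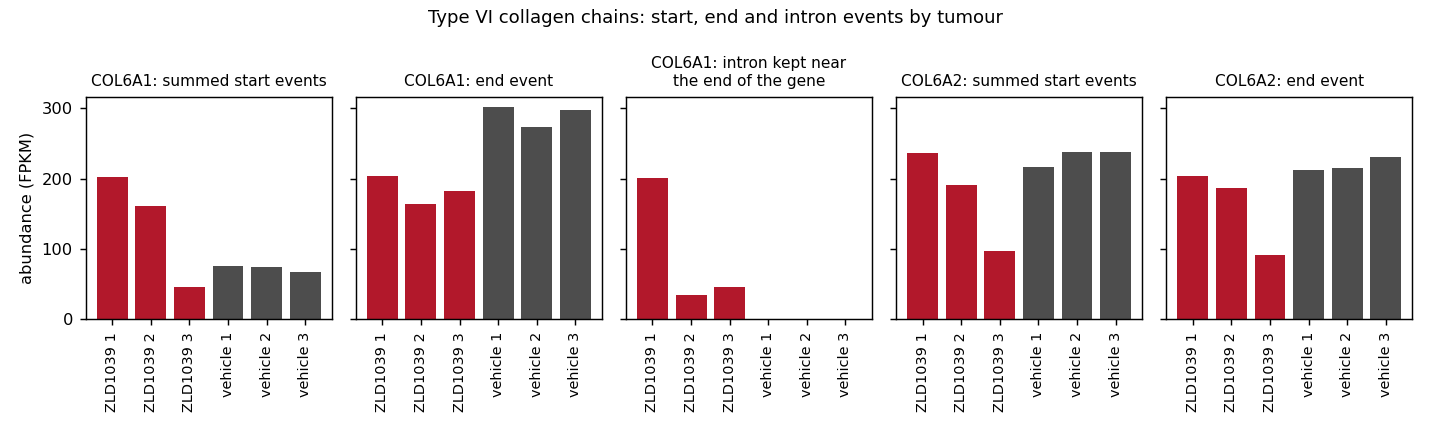
FPKM of start, end and kept-intron events of COL6A1 and of start and end events of COL6A2, 1 bar per tumour, with ZLD1039 tumours in red left of vehicle tumours in grey. The COL6A1 end is lower in all 3 ZLD1039 tumours, the COL6A1 starts are higher in ZLD1039 tumours 1 and 2, and the kept intron has bars in ZLD1039 tumours only. A missing bar is an unlisted event.

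COL6A2 (ENSG00000142173), the second chain of type VI, lies 93046 bases downstream of COL6A1 on the same strand, at 47518011 to 47552763. Its locus FPKM was 236, 191 and 96.5 in ZLD1039 tumours, against 217, 239 and 238 in vehicle tumours. ZLD1039 tumour 3 was the lowest of the 6, and ZLD1039 tumour 1 lay among the vehicle tumours. The means were 174 ± 71.3 FPKM under ZLD1039 and 231 ± 12.5 FPKM under vehicle (SD, n = 3 each). The log2 difference was -0.50 (SE 0.31), and its adjusted p was 0.881 by limma. Without ZLD1039 tumour 3 it was -0.12. Unlike COL6A1, starts and ends of COL6A2 were close in every tumour, with a ratio of ends to starts of 0.864, 0.980 and 0.946 under ZLD1039 and 0.980, 0.904 and 0.973 under vehicle. The leading start, at 47518011 to 47518087, held over 99% of the summed starts in every tumour.

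COL6A3 (ENSG00000163359), the third chain of type VI, had no locus on its own minus strand in any tumour. Its identifier was attached to 1 locus on the plus strand of chromosome 2, at 238243333 to 238244938. That locus had 0.647 FPKM in vehicle tumour 3 and was unlisted in the other 5 tumours, so it was too low for the test. A locus on the strand opposite to COL6A1 also carried that gene's identifier, within 47422144 to 47424722. It had 7.64 FPKM in ZLD1039 tumour 1 and was unlisted in ZLD1039 tumours 2 and 3, against 2.01, 6.56 and 9.43 FPKM in vehicle tumours. The pieces listed differed from tumour to tumour, and no piece was listed in more than 1 tumour. The locus did not pass the test (adjusted p 0.881 by limma). Whether the libraries kept the strand of the RNA is not given in the sources used here, so these reads and those of COL6A1 cannot be told apart. Of the 14202 identifiers, 222 (1.56%) had loci on both strands.

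COL4A2 (ENSG00000134871), a chain of the basement membrane trimer, had its listed events on chromosome 13 from 110958159 to 111158953 on the plus strand. Its locus FPKM was 80.5, 44.8 and 72.0 in ZLD1039 tumours, against 73.1, 82.1 and 88.5 in vehicle tumours. ZLD1039 tumour 2 was the lowest, and the groups overlapped. The means were 65.8 ± 18.7 FPKM under ZLD1039 and 81.2 ± 7.73 FPKM under vehicle (SD, n = 3 each). The log2 difference was -0.34 (SE 0.24) with an adjusted p of 0.881 by limma, and without ZLD1039 tumour 2 it was -0.09.

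COL4A1 (ENSG00000187498), its partner in that trimer, is transcribed from the opposite strand, at 110801318 to 110959478. The leading first exons of the pair lie head to head, 135 bases apart. COL4A1 had 28.3, 13.5 and 33.9 FPKM in ZLD1039 tumours, against 26.3, 28.5 and 29.5 FPKM in vehicle tumours. The ZLD1039 tumours held both the lowest and the highest value, and the vehicle tumours were close together. The means were 25.2 ± 10.5 FPKM under ZLD1039 and 28.1 ± 1.67 FPKM under vehicle (SD, n = 3 each). The log2 difference was -0.24 with a 95% interval of -0.96 to 0.48 and an adjusted p of 0.909 by limma. Without ZLD1039 tumour 2 its sign turned, to 0.14.

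On either side of that stretch, COL4A2 had the higher FPKM in every tumour. The ratio of COL4A1 to COL4A2 was 0.351, 0.302 and 0.471 in ZLD1039 tumours, and 0.359, 0.347 and 0.334 in vehicle tumours. The vehicle ratios lay inside the range of the ZLD1039 ratios. The start of COL4A2 at 110959614 to 110959875 had 44.0 to 88.3 FPKM across the tumours and at least 98.2% of the summed starts in each. The listed end of COL4A2, at 111125814 to 111125941, stayed between 0.098 and 1.04 FPKM. The value of COL4A2 therefore comes from its starts. COL4A1 had 1 start and 3 ends, and its main end, at 110801318 to 110802791, had 27.8, 13.2 and 33.8 FPKM in ZLD1039 tumours, against 26.3, 28.4 and 29.5 FPKM in vehicle tumours. The end at 110843090 to 110843996 was listed in ZLD1039 tumours 1 and 2 alone, at 0.353 and 0.193 FPKM. An extra COL4A2 start at 110958159 to 110958290 was listed in ZLD1039 tumour 2 alone, at 0.354 FPKM.

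**Figure D3:**
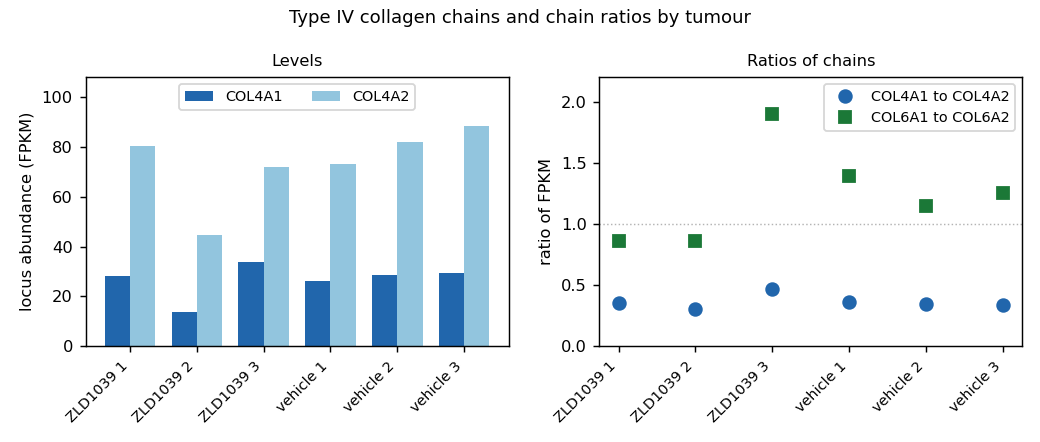
Left, locus abundance in FPKM of COL4A1 and COL4A2 in each tumour; right, the ratio of FPKM of COL4A1 to COL4A2 and of COL6A1 to COL6A2 in each tumour, with ZLD1039 tumours left of vehicle tumours and the dotted line at 1. COL4A2 exceeds COL4A1 in all 6 tumours, and the COL6A1 to COL6A2 ratio spans 0.861 to 1.90 under ZLD1039.

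COL5A2 (ENSG00000204262), a chain of the minor fibril collagen that sets fibril width, had its listed events on chromosome 2 from 189896622 to 189921752 on the minus strand. Its locus FPKM was 7.82, 7.97 and 9.13 in ZLD1039 tumours, against 17.1, 14.1 and 9.93 in vehicle tumours. Every ZLD1039 tumour was below every vehicle tumour, though ZLD1039 tumour 3 and vehicle tumour 3 were close. The means were 8.31 ± 0.72 FPKM under ZLD1039 and 13.7 ± 3.62 FPKM under vehicle (SD, n = 3 each). The log2 difference was -0.63 (SE 0.21), with an unadjusted p of 0.0181 and an adjusted p of 0.881 by limma, so the locus was not called. No start was listed for COL5A2, and its value is the sum of 2 ends. The main end, at 189896622 to 189898942, led in every tumour, and the minor end, at 189921492 to 189921752, held 5.00%, 6.17% and 3.65% of that sum under ZLD1039 and 2.54%, 1.03% and 3.61% under vehicle. The end shares did not pass the test (adjusted p 0.774 by limma).

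COL5A1 (ENSG00000130635), the partner of COL5A2, had its listed events on chromosome 9 from 137533620 to 137722199 on the plus strand. It had 0.695, 0.508 and 0.191 FPKM in ZLD1039 tumours, against 0.246, 0.073 and 0.561 FPKM in vehicle tumours. The groups overlapped, and the locus was below the minimum mean of 1 FPKM for the test. With no such minimum its log2 difference was 0.18 (SE 0.21, adjusted p 0.834 by limma). COL5A1 is the chain of the 9 whose mean was higher under ZLD1039.

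COL1A1 and COL1A2 are the chains of type I collagen, the main fibril of skin and bone, and COL3A1 is the chain of type III. COL1A1 (ENSG00000108821), on chromosome 17 at 48260650 to 48278993 on the minus strand, had 2.60, 0.187 and 1.22 FPKM in ZLD1039 tumours, against 1.59, 0.478 and 4.65 FPKM in vehicle tumours. Vehicle tumour 3 was the highest, ZLD1039 tumour 2 the lowest, and the groups overlapped. The log2 difference was -0.40 (SE 0.57) with an adjusted p of 0.913 by limma. It turned to 0.02 without ZLD1039 tumour 2 and to 0.11 without vehicle tumour 3. The start of COL1A1, at 48278772 to 48278993, was listed in 4 of the 6 tumours and in neither ZLD1039 tumour 2 nor ZLD1039 tumour 3. The end at 48260650 to 48263009 held 97.0%, 0% and 46.5% of the summed ends in ZLD1039 tumours, and 87.9%, 97.8% and 98.9% in vehicle tumours. In ZLD1039 tumour 2 the ends listed lay inside the gene, at levels of at most 0.112 FPKM. The end shares of COL1A1 did not pass the test (adjusted p 0.774 by limma).

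COL3A1 (ENSG00000168542), on chromosome 2 at 189839046 to 189877472 on the plus strand, had 1.43, 0.603 and 0.489 FPKM in ZLD1039 tumours, against 1.29, 0.686 and 2.59 FPKM in vehicle tumours. Its highest value was in vehicle tumour 3 and its next highest in ZLD1039 tumour 1. Its log2 difference was -0.42 (SE 0.37) with an adjusted p of 0.884 by limma. The end of COL3A1 lies 19149 bases from the end of COL5A2, tail to tail, and COL5A2 had the higher FPKM in every tumour.

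COL1A2 (ENSG00000164692), with listed events on chromosome 7 from 94043532 to 94057197 on the plus strand, had the lowest means of the tested chains. It had 0.224 and 0.030 FPKM in ZLD1039 tumours 1 and 3 and was unlisted in ZLD1039 tumour 2, against 0.331, 0.132 and 3.36 FPKM in vehicle tumours. Only vehicle tumour 3 exceeded 1 FPKM. On the log2 scale the difference was -0.79 (SE 0.54) with an adjusted p of 0.881 by limma, and without vehicle tumour 3 it was -0.18. None of its 17 events was listed in all 6 tumours. Its 7 listed starts were spread over 13666 bases, and the first of them, at 94043532 to 94043587, was listed in vehicle tumour 3 alone, at 2.62 FPKM. Every COL1A2 start listed in the other tumours lay downstream of that one. Whether any listed start is the gene's own first exon was not checked.

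Summed over COL1A1, COL1A2 and COL3A1, the levels were 4.26, 0.790 and 1.74 FPKM in ZLD1039 tumours, against 3.21, 1.30 and 10.6 FPKM in vehicle tumours. Vehicle tumour 3 and ZLD1039 tumour 1 had the most of these chains, and tumour 2 of each group the least. COL1A1 ranked above 31.2%, 4.05% and 19.3% of the listed loci in ZLD1039 tumours, and above 23.4%, 6.74% and 43.5% in vehicle tumours. COL6A1, for comparison, ranked above 98.9%, 98.2% and 98.8% under ZLD1039, and above 99.3%, 99.2% and 99.2% under vehicle. Collagen events were thinly shared between tumours: 32.6% of the 89 were listed in all 6 and 31.5% in 1, against 49.7% and 20.3% of all events.

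Across the comparison of ZLD1039 with vehicle, no collagen locus passed the adjusted threshold, and neither did any collagen event or share. Of 10834 loci tested, 2 (0.0185%) were called, of 82894 events 30 (0.0362%), and of 13274 exon and intron shares, 21321 start shares and 4610 end shares none (0%). At an unadjusted p under 0.05 the limma fits gave 4.94% of loci, 4.7% of events, 2.09% of exon and intron shares, 2.49% of start shares and 2.86% of end shares. Among the collagens, COL6A1 and COL5A2 had an unadjusted p under 0.05 in the locus fit, both lower under ZLD1039, as did 2.67% of all loci tested. Of 47 collagen events tested, 5 had an unadjusted p under 0.05: the COL6A1 and COL5A2 ends, lower under ZLD1039, and the 3 events of the COL6A1 intron. Those 3 reached the minimum of 1 FPKM through the ZLD1039 group alone. The same 2 of the 9 collagen loci tested, 8 of them on the gene's own strand, had groups that did not overlap and ZLD1039 lower, as did 5.2% of all loci. Groups that did not overlap with ZLD1039 higher occurred in 5.75% of all loci and in no collagen locus.

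All 8 own-strand collagen loci that were tested had a log2 difference below 0, with a median of -0.46. Over all loci tested, 47.2% were below 0 and the median was 0.02. The 8 loci were measured in the same tumours, so their signs are not independent. COL6A1 turned to 0.65 from its summed starts. Without ZLD1039 tumour 2, COL1A1 turned to 0.02 and COL4A1 to 0.14. COL1A2 and COL3A1 reached the minimum of 1 FPKM in the vehicle group alone, so their direction was partly set by that filter. COL5A1, which did not reach it, lay above 0. The intervals were wide: that of COL1A1 ran from -1.71 to 0.92, that of COL6A2 from -1.22 to 0.23 and that of COL4A2 from -0.89 to 0.21. A log2 difference of -1 lies inside the intervals of COL1A1, COL1A2, COL3A1, COL5A2, COL6A1 and COL6A2 and outside those of COL4A1 and COL4A2.

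**Figure D4:**
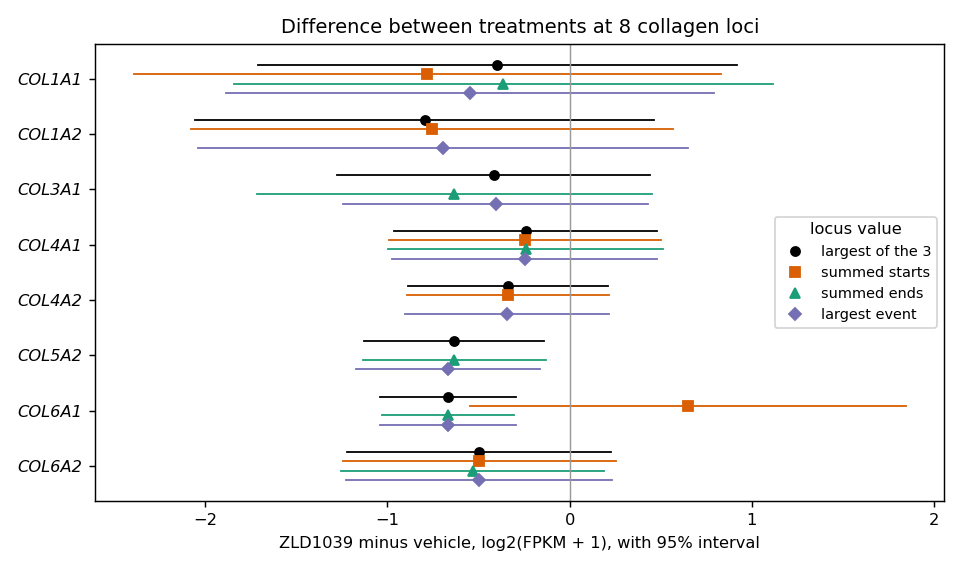
Difference between ZLD1039 and vehicle at the 8 tested collagen loci, as log2(FPKM + 1), with 95% limma intervals, for 4 ways of setting the locus value; points left of 0 are lower under ZLD1039. All loci lie left of 0 for the largest of the 3 values, and COL6A1 moves right of 0, to 0.65, when its starts alone are used.

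Chains of the same collagen type, and COL3A1 with COL1A1, were compared as ratios of FPKM within each tumour. The ratio of COL6A1 to COL6A2 was 0.861, 0.862 and 1.90 in ZLD1039 tumours, and 1.39, 1.15 and 1.25 in vehicle tumours. ZLD1039 tumours 1 and 2 were below all vehicle tumours and ZLD1039 tumour 3 was above them. The difference of the mean log2 ratios was -0.17 for COL6A1 to COL6A2 and 0.09 for COL4A1 to COL4A2 (p = 0.8 for both by the exact permutation test, two-sided, and 1.0 after adjustment). From summed starts the COL6A1 to COL6A2 difference turned to 1.15, with p = 0.1 by the exact permutation test, the smallest it can give. The ratio of COL5A1 to COL5A2 was 0.0889, 0.0638 and 0.0209 under ZLD1039, and 0.0144, 0.0052 and 0.0565 under vehicle. Its log2 difference of 1.61 had p = 0.2 by the same exact permutation test and 0.8 after adjustment over the 4 ratios. That ratio sets unlike events side by side. COL5A1 took its value from an exon-skipping event in ZLD1039 tumours 1 and 2 and vehicle tumour 3, and COL5A2 from its ends. COL5A1 was at most 0.695 FPKM in any tumour. From summed ends of both chains the difference was 0.62 (p = 0.5 by the exact permutation test). For COL3A1 to COL1A1 the log2 difference was 0.05 (exact permutation p = 1.0). With 3 tumours in each group, this test cannot give a p below 0.1. Ratios of COL1A1 to COL1A2 and of COL6A3 to its partners could not be computed, since a chain was unlisted.

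Co-variation was measured over the 6 tumours for the 36 pairs of the 9 chains, on log2(FPKM + 1). Pearson's r was above 0 in 30 pairs, with a median of 0.42 and a range of -0.68 to 0.90. An exact permutation test gave an unadjusted p under 0.05 in 4 pairs and in none after adjustment over the 36, where the smallest adjusted p was 0.233.

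The fibril chains COL1A1, COL1A2 and COL3A1 formed 3 of those 4 pairs, each with an adjusted permutation p of 0.233 for r. COL1A2 and COL3A1 had r = 0.89 (exact permutation p = 0.0069) and Spearman's rho = 0.89 (exact permutation p = 0.0333). Without vehicle tumour 3 and ZLD1039 tumour 2, the tumours farthest from the median of COL1A2, r was 0.90. COL1A1 and COL3A1 had r = 0.89 (exact permutation p = 0.0181) and rho = 0.83 (exact permutation p = 0.0583), with r = 0.73 without the same tumours. COL1A1 and COL1A2 had r = 0.80 (exact permutation p = 0.0194) and rho = 0.89 (exact permutation p = 0.0333), with r = 0.45 without them. In the tumours that remained, COL1A2 lay between 0.030 and 0.331 FPKM, so its r values there rest on levels below 1 FPKM. With all tumours, the unlisted COL1A2 of ZLD1039 tumour 2 entered r as 0. Within the groups, as deviations from each group's mean, r was 0.86, 0.90 and 0.81 for these pairs in the order given. COL3A1 ranked 87th of 10833 other loci in its likeness to COL1A1, and COL1A1 and COL1A2 ranked 74th and 75th in likeness to COL3A1. COL1A2 ranked lower, 303rd, in likeness to COL1A1, and COL1A1 ranked 252nd in likeness to COL1A2. Loci outside the collagens with an r above 0.95 numbered 18 for COL1A1, 23 for COL1A2 and 17 for COL3A1. The part of host reads in this co-variation was not tested.

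COL4A1 and COL4A2, which start 135 bases apart, had the highest r of the 36 pairs, 0.90 (exact permutation p = 0.101), with rho = 0.43 (exact permutation p = 0.419). After adjustment over the pairs the permutation p of r was 0.529. The value depends on which tumours are used: without ZLD1039 tumour 2, where both chains were lowest, r was -0.18, and without ZLD1039 tumours 2 and 3, the farthest from the median of COL4A1, r was 0.99. As deviations within the groups r was 0.92. COL4A2 ranked 404th of 10833 other loci in likeness to COL4A1, and 157 loci outside the collagens had an r with COL4A1 above 0.95. The most alike was ENSG00000197959, with r = 0.999; the files do not pair it with a name.

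COL6A1 and COL6A2 had r = 0.56 (exact permutation p = 0.226, adjusted 0.529) and rho = 0.54 (exact permutation p = 0.297). Without ZLD1039 tumours 2 and 3 the r was -0.40, and as deviations within the groups it was 0.17, so the relation did not hold within the groups. COL6A2 ranked 1761st in likeness to COL6A1, and the most alike locus outside the collagens was ENSG00000099822, with r = 0.988. The fourth pair with an unadjusted p under 0.05 was COL4A2 and COL6A1, with r = 0.70 (exact permutation p = 0.0444, adjusted 0.4) and rho = 0.66 (exact permutation p = 0.175), and with r = 0.15 without ZLD1039 tumour 2 and vehicle tumour 3. COL5A1 and COL5A2 had the lowest r of all, -0.68 (exact permutation p = 0.161, adjusted 0.529), with rho = -0.60 (exact permutation p = 0.242) and with r = -0.44 without ZLD1039 tumour 1 and vehicle tumour 2.

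**Figure D5:**
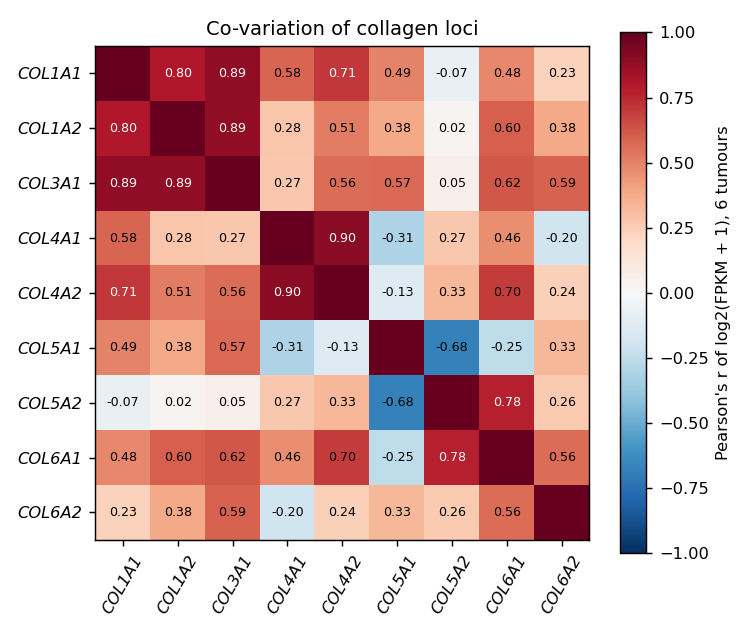
Pearson's r of log2(FPKM + 1) over 6 tumours (3 under ZLD1039 and 3 under vehicle) for each pair of 9 collagen chains, from blue for -1 to red for 1. The block of COL1A1, COL1A2 and COL3A1 lies between 0.80 and 0.89, COL4A1 and COL4A2 reach 0.90, and COL5A1 and COL5A2 lie at -0.68.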

How the data were processed

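Per the file headers, the deposited values are FPKM of transcript events, 1 list per tumour. Upstream, HTSeq 0.6.1, bcl2fastq 2.17.1.14 and mm10, a mouse build, are named per the submitters' processing notes; an aligner, assembler or event caller is not given in the sources used here. All positions are human, since autosomes run to number 22 and chromosome 1 to 249214145. They are printed as the files give them; the human build is not stated, and a human genome, sequences and gene names were not used here. Names of the 10 chains come with their identifiers.

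Groups and replicate numbers came from the sample titles. Separate mice for the tumours are not stated outright, so p-values cover only the spread among these 6 tumours. On log2(FPKM + 1), limma 3.58.1 (R 4.3.3) was fitted to every locus and every event whose mean reached 1 FPKM in either group, using a trend of variance with mean. P-values were adjusted by Benjamini-Hochberg over the whole table, at 0.05. Adding 1 makes differences of low values look smaller. Shares of events, in percent, were fitted likewise where the mean share lay over 1% and under 99%. The scripts were tested on simulated data.

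The members and lists were chosen with earlier results of these data known. The rule for naming took all 10 chains, each locus's leading start, leading end and event of smallest p, and for likeness the other chains and the most alike locus outside them, of which 2 are printed. Lists of collagen-processing enzymes, other collagens, matrix partners, receptors, proteases and cell type markers were planned and not analysed here, for want of human names. The alternatives tried were other pseudocounts, filters, scalings and locus values, no trend, a replicate block and each tumour left out.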

Additional observations from a re-analysis of the deposited data

How the results depend on the processing

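No collagen locus was called under any alternative tried: the smallest adjusted p over the 9 tested loci was 0.370 by limma, for the locus opposite to COL6A1 without ZLD1039 tumour 1. Leaving aside alternatives that cannot move a log2 difference (no filter, no trend, the block), 99 of 104 differences kept their sign and 5 reversed. With the summed starts in place of the largest value, COL6A1 stood at 0.65 and the log2 ratio difference of COL6A1 to COL6A2 at 1.15 (exact permutation p = 0.1). With the summed ends, the locus opposite to COL6A1 stood at 1.04 and the ratio of COL4A1 to COL4A2 at -0.18. The other reversals left out tumours. COL4A1 stood at 0.14 without ZLD1039 tumour 2, COL1A1 at 0.02 without ZLD1039 tumour 2 and 0.11 without vehicle tumour 3, the r of COL4A1 and COL4A2 at -0.18 without ZLD1039 tumour 2, and the r of COL6A1 and COL6A2 at -0.40 without ZLD1039 tumours 2 and 3. The log2 ratio difference of COL3A1 to COL1A1 stood at -0.88 without ZLD1039 tumour 2, -0.27 without vehicle tumour 3 and -0.0007 without vehicle tumour 1, that of COL4A1 to COL4A2 at -0.089 without ZLD1039 tumour 3, and that of COL6A1 to COL6A2 at 0.021 and 0.020 without ZLD1039 tumours 1 and 2. The cause was not tested for any of them.

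Leaving out each tumour in turn gave ranges of -0.85 to 0.11 for COL1A1, -1.16 to -0.18 for COL1A2, -0.67 to -0.13 for COL3A1, -0.49 to 0.14 for COL4A1, -0.50 to -0.09 for COL4A2, -0.83 to -0.47 for COL5A2, -0.74 to -0.59 for COL6A1 and -0.76 to -0.12 for COL6A2. The COL6A1 range holds for its end alone. Its leading start ran from 0.27 to 1.33, in the opposite direction without any 1 tumour. The log2 ratio differences ran from -0.88 to 0.63 for COL3A1 to COL1A1, -0.089 to 0.23 for COL4A1 to COL4A2, 0.79 to 2.51 for COL5A1 to COL5A2 and -0.55 to 0.021 for COL6A1 to COL6A2. Collagen loci, events and shares called stayed at 0 without any 1 tumour. With a pseudocount of 0.1 FPKM, 3 collagen events were called, among 20 called of all 82894 events tested. All 3 lie in the COL6A1 intron region, have the same values in every tumour and are unlisted in the vehicle tumours. They passed the filter through the ZLD1039 group alone, so these calls are no separate support for a difference. Without a filter on low values the intron's adjusted p was 0.373 by limma.

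Over the whole table, loci called ran from 0 to 2 across the alternatives and events from 0 to 30: 20 events with a pseudocount of 0.1, 3 with no filter, 0 with the replicate block and 0 to 6 with a tumour left out. Tumours with the same number did not deviate together (correlations of -0.03, 0.02 and -0.06). Between tumours with different numbers the correlations ran from -0.06 to 0.11. These values show no pairing by number, which such correlations alone cannot settle. With the replicate block 0 collagen loci, 0 events and 0 shares were called, and the intron's adjusted p was 0.415 by limma. The ratio differences (0.05, 0.09, 1.61 and -0.17) equal those without the block by arithmetic. Median-of-ratios scaling and quantile normalization turned no direction. COL1A2, COL3A1, COL4A2 and COL5A2 have no value under summed starts or summed ends where the locus fell below 1 FPKM or listed no such event. Depth is unknown, so no limit of detection can be given.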
